A study of Mus musculus with 6 samples.

Results

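Wnt signaling was followed through 58 genes measured by RNA sequencing in 6 primary mouse osteosarcomas, 3 with intact Cd44 and 3 without it. The 58 genes are a fixed list of symbols and comprised 19 Wnt ligands, 12 receptors (10 Frizzleds with Lrp5 and Lrp6), 11 secreted inhibitors, 6 R-spondins and Lgr receptors, 4 TCF/LEF transcription factors and 6 feedback targets. All 58 were found among the 39179 genes of the count table. Every tumor, controls included, arose in an animal heterozygous for the Nf2Δ2 mutation of the tumor suppressor Nf2, on a mixed C57BL/6 x 129/Sv x FVB background. The Cd44+/+ tumors were No244, No316 and No368, and the Cd44-/- tumors were No203, No279 and No364, listed in this order throughout, with no treatment given in the labels and with age and sex not given in the sources used here. Because Nf2 was mutated in both groups, the comparison is between Cd44 genotypes within Nf2-mutant tumors and has no Nf2 wild-type reference.

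Wnt proteins are secreted lipid-modified ligands that bind a Frizzled receptor together with Lrp5 or Lrp6. In the canonical branch this stabilizes β-catenin, which enters the nucleus and activates genes with TCF/LEF factors. In bone the pathway drives osteoblast formation, and it is held back by secreted inhibitors of the Dkk, Sfrp, Wif and sclerostin families and by feedback genes that β-catenin itself activates, whereas R-spondins acting through Lgr receptors strengthen the signal.

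Several features of the libraries bear on every value given here. Libraries held 18076388 to 26954142 counts, and 3 counts corresponded to 0.0990 to 0.252 CPM (read counts scaled to library size with the trimmed mean of M-values, TMM). Cd44 itself was at 137, 243.6 and 240.3 CPM in Cd44+/+ tumors and at 19.2, 15.7 and 61.8 CPM in Cd44-/- tumors (log2 fold change -2.68, SE 0.65), in the direction of the labels. DESeq2 called Cd44 with all libraries (adjusted p 0.0145), and gave it an adjusted p of 0.178 when the near-identical libraries described next were summed. No316 and No368 agreed within binomial sampling noise for 87.2% of 16671 genes, against 15.7% to 24.1% in the 14 other pairs, and were counted as 1 sample in every mean ± SD (n = 2 for Cd44+/+, n = 3 for Cd44-/-). No364 held the highest level of all 12 hepatocyte markers, whose sum was 126251 CPM there against 48.5 to 166 CPM in the other 5 tumors. All 5 epithelial markers were also highest in No364 (sum 1969 CPM, against 2.61 to 36.3 CPM). So were all 4 Kupffer cell markers (123 CPM, against 0.294 to 10.8 CPM). No364 was highest for 3 of 4 hepatic stellate cell markers and 2 of 4 liver sinusoidal endothelium markers. Mitochondrial genes took 55.2% of the counts of No244 and 5.94% to 12.5% elsewhere, and the 6 skeletal muscle markers summed to 18169.6 CPM in No244 against 14.1 to 642 CPM. The 9 osteoblast markers, which check the labelled tissue, were well measured in No203 and the Cd44+/+ tumors, but in No364 all 9 lay below every Cd44+/+ tumor and in No279 8 of 9 did. Sp7, the osteoblast transcription factor, was at 192 to 333 CPM in the first 4 tumors, at 3.96 CPM in No279 and at 0.314 CPM in No364. The 4 Y-linked genes summed to 44.0 CPM in No279 and 69.6 CPM in No364 against 0 to 3.28 CPM in the others. Xist, the X inactivation transcript, was at 0.726 CPM in No279, 0.994 CPM in No364 and 859 to 1241.5 CPM in the others. By these genes 2 of the 3 Cd44-/- tumors were male and the rest, with every Cd44+/+ tumor, were female. Genotype, sex, these markers and the animals' background cannot be told apart in 6 tumors. In bulk tissue, fewer cells of a type and less RNA per cell cannot be told apart either.

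No Wnt gene passed the adjusted threshold in the edgeR quasi-likelihood test, which called 0 of the 44 fitted members and 0 of all 16839 genes (0.0%). The lowest adjusted p over all genes was 0.452. In all, 8 members had an unadjusted p under 0.05, which is 18.2% of the 44 against 10.7% of all genes. Of these, 4 were lower in Cd44-/- tumors, where 4.31% of all genes were, and 4 were higher, where 6.44% of all genes were. With the near-identical libraries No316 and No368 summed there were 7 members (4.26% of all genes), and without No364 there were 9 (8.82%). The study also used DESeq2 but reports more genes than the fit here, so the calls that follow are not its own. The DESeq2 Wald test here called 6 members, with Wnt4, Lef1 and Nkd2 lower and Dkk3, Sfrp2 and Rspo1 higher. Of all 17952 genes given an adjusted p it called 419 (2.33%, with 1.12% lower and 1.21% higher). With the pair summed it called 2 members, Wnt4 lower and Rspo1 higher, against 0.797% of all genes (0.289% lower and 0.508% higher). Without No364 it called 6, which then included Wnt10b and no longer Lef1, against 2.36% (1.23% lower and 1.13% higher). The 3 Cd44-/- values all lay on one side of the 3 Cd44+/+ values for 7 of the 44 members (15.9%), a share below the 19.1% of all genes. Of these, 4 were lower in Cd44-/- tumors (9.57% of all genes) and 3 were higher (9.49%). There were 8 such members with the pair summed (20.6% of all genes) and 10 without No364 (28.7%). The 14 members that were not fitted (Wnt1, Wnt2, Wnt3, Wnt3a, Wnt7a, Wnt8a, Wnt8b, Wnt9b, Wnt16, Fzd10, Sfrp5, Sostdc1, Rspo1 and Lgr5) had too few counts in too many tumors for the filter, and a gene high in 1 tumor alone is missed in this way. Each p sets the difference between the genotypes against the spread within them, in these 6 tumors only, of which 2 may be one library. Fits on all libraries count No316 and No368 as 2 samples, so their p-values and SEs may rest on too small a Cd44+/+ spread.

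**Figure D1:**
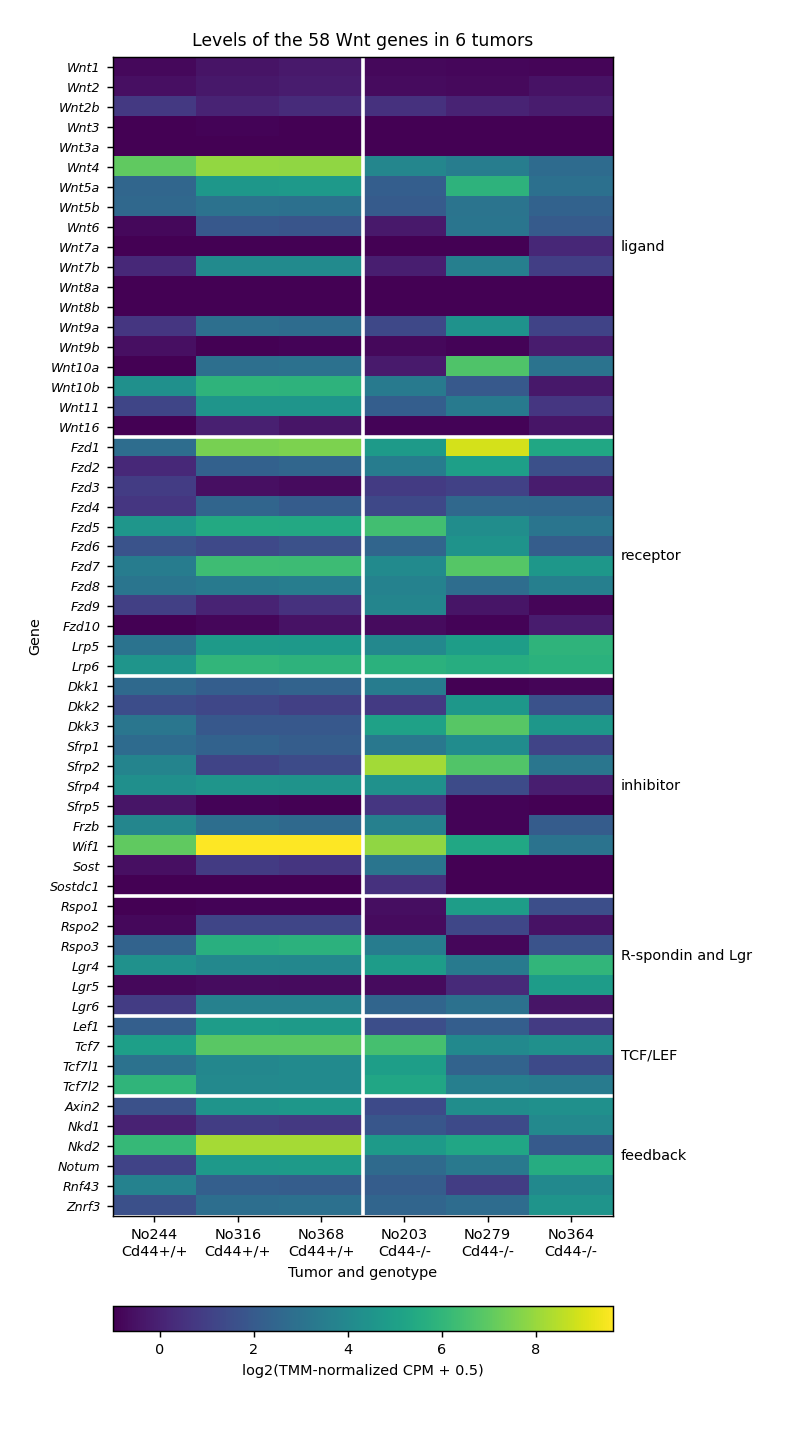
Levels of the 58 Wnt genes as log2(TMM-normalized CPM + 0.5) by color, with tumors in columns, genes in rows and white lines between the gene classes and the genotypes. The bright Wnt4 row in the Cd44+/+ columns (130.4 to 240.0 CPM) ends at the white line, whereas the Fzd1, Wif1 and Axin2 rows differ between tumors of the same genotype.

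Among the ligands, Wnt4 and Wnt10b were lower in all 3 Cd44-/- tumors. Wnt4, a ligand that acts through several Frizzled receptors, lies at chr4:137277489-137299726 (GRCm38, plus strand) with no overlapping gene. It was at 130.4 CPM in No244, 240.0 CPM in No316 and 234 CPM in No368, and at 14.1 CPM in No203, 10.96 CPM in No279 and 6.18 CPM in No364. All Cd44+/+ tumors were therefore above all Cd44-/- tumors, with a gap between the lowest and the highest that was wider than the spread within either genotype. The means were 184 ± 75.4 CPM (SD, n = 2) and 10.4 ± 3.998 CPM (SD, n = 3), and the log2 fold change was -4.27 (SE 0.52), with an edgeR adjusted p of 0.452 although Wnt4 ranked 3 among 16839 genes by unadjusted p. DESeq2 called it lower with all 6 libraries (adjusted p 7.26e-11), with the pair summed (1.60e-05) and without No364 (1.24e-10). The log2 fold change stayed between -4.59 and -4.00 when any 1 tumor was left out. Within the Cd44-/- tumors the order of Wnt4 (No203, No279, No364) was also the order of the summed osteoblast markers (84760, 22538 and 3691 CPM). Across genotypes the orders differed, since the marker sum of No203 was above that of every Cd44+/+ tumor (33637 to 52887 CPM). The part of these markers in the result was not tested.

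The Wnt4 promoter is shown because this gene had the lowest unadjusted p of the list. RefSeq (GRCm38.p6) gives 1 start, and the 300 bases from 250 before to 50 after it, at chr4:137277385-137277684 on the plus strand, were 84.3% G or C and held 51 CpG dinucleotides. They held none of the motifs searched. These were the TCF/LEF site (spelled CTTTGAT, in a further form CTTTGAA, in another form CTTTGTT and in a last form CTTTGTA), the response element of the CD44 intracellular domain (CIRE, spelled CCTGCG) and the phorbol ester response element (TRE, spelled TGACTCA or in its other form TGAGTCA), all on both strands and with no overlap between motifs. An absent match says only that these letters are not in this window.
Wnt4: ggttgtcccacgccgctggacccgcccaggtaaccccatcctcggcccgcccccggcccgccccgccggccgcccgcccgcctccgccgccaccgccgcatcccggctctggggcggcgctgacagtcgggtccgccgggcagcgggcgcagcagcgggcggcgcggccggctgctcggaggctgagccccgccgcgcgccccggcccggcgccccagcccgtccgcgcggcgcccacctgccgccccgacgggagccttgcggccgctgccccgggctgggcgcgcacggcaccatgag

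Wnt10b, a canonical ligand that promotes bone formation, showed the same order at chr15:98770712-98778150 (minus strand, no overlapping gene). Its level was 19.998, 60.5 and 58.3 CPM in Cd44+/+ tumors and 9.52, 3.37 and 0.314 CPM in No203, No279 and No364. The genotypes did not overlap, but the ratio of No244 to No203 was smaller than the ratio of No203 to No364. The log2 fold change was -3.39 (SE 1.12). DESeq2 gave an adjusted p of 0.0651 with all libraries, 0.301 with the pair summed and 0.0148 without No364.

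The remaining ligands were divided by tumor rather than by genotype. Wnt10a, a canonical ligand close to Wnt10b, was at 0, 6.81 and 7.22 CPM in Cd44+/+ tumors and at 0.357, 105 and 7.75 CPM in No203, No279 and No364. It was thus high in No279 alone, and its log2 fold change of 2.99 had an SE of 2.04 and was -0.23 without that tumor. Wnt5a, which signals largely outside the β-catenin branch, was at 5.13, 24.3 and 25.7 CPM against 4.005, 58.006 and 7.12 CPM. Wnt9a was likewise highest in No279 (21.2 CPM, against 1.09 to 6.81 CPM in the others). Wnt11 was at 22.6 and 23.1 CPM in No316 and No368 and at 1.10 to 9.67 CPM in the other 4 tumors. Wnt7b was at 16.6 CPM in both No316 and No368, at 11.6 CPM in No279 and at 0.436 to 1.47 CPM in the rest. Wnt5b was even across tumors (3.61 to 8.06 CPM). Wnt6 reached 8.25 CPM in No279, and Wnt2b stayed between 0.366 and 1.18 CPM. Wnt3a, Wnt8a and Wnt8b had 0 counts in every tumor and Wnt3 had 1 count in 1 tumor, so their transcripts were not detectable at this depth, and Wnt1, Wnt2, Wnt7a, Wnt9b and Wnt16 stayed at or below 0.628 CPM.

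Per kilobase of exon, which allows levels of different genes to be compared, the ligand pool differed in composition between tumors. The summed ligand level was 41.1, 96.6 and 94.6 CPM per kb in Cd44+/+ tumors and 10.3, 71.5 and 10.6 CPM per kb in No203, No279 and No364. Wnt4 made up 75.7%, 59.3% and 59.0% of that sum in the Cd44+/+ tumors and 32.7%, 3.65% and 13.9% in the Cd44-/- tumors. Wnt4 was the leading ligand in the Cd44+/+ tumors and in No203, whereas Wnt10a led in No279 (59.3%) and No364 (29.5%). The summed level overlapped between the genotypes, since No279 lay above No244. Without Wnt4 the sum was 10.003, 39.3 and 38.7 CPM per kb against 6.94, 68.9 and 9.15 CPM per kb.

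**Figure D2:**
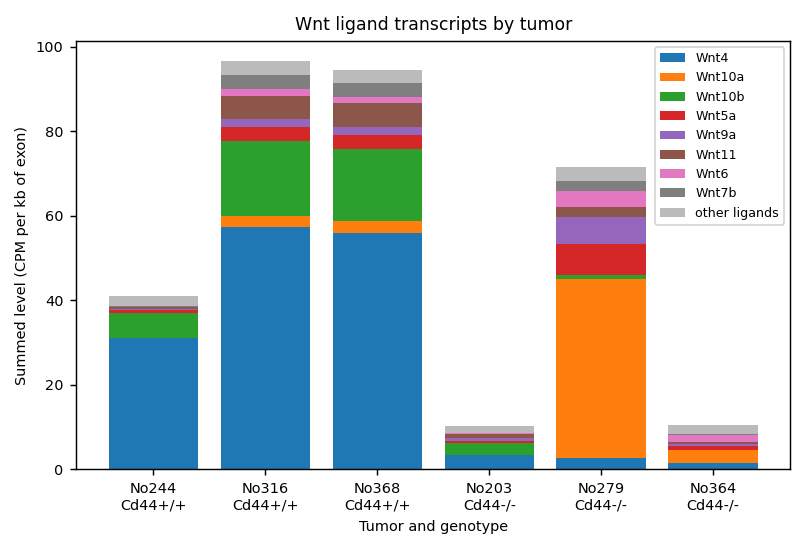
Stacked bars of ligand transcripts in each tumor, in CPM per kb of exon, with the 8 ligands of highest level in color and the other ligands in gray. The blue Wnt4 part makes up 59.0% to 75.7% of the Cd44+/+ bars and 3.65% to 32.7% of the Cd44-/- bars, and the orange Wnt10a part dominates No279.

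Among the receptors, Fzd6 was the 1 member at an unadjusted p under 0.05. Fzd6, a Frizzled known for planar cell polarity, was at 2.77, 2.02 and 2.64 CPM in Cd44+/+ tumors and at 5.04, 21.4 and 3.87 CPM in No203, No279 and No364. The genotypes did not overlap, yet most of the difference came from No279: the log2 fold change of 2.03 (SE 0.78) was 0.85 without that tumor. DESeq2 did not call it (adjusted p 0.196).

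Fzd1 was the Frizzled with the most reads and did not separate the genotypes. It was at 6.39, 175 and 184 CPM in Cd44+/+ tumors and at 27.1, 493 and 39.8 CPM in Cd44-/- tumors, a range from No244 to No279 that included both genotypes. Fzd7, another receptor of the canonical branch, followed a like order at 10.4, 80.1 and 78.2 CPM against 16.3, 114 and 24.3 CPM. Fzd5 went the other way among the Cd44-/- tumors, at 23.5, 43.2 and 42.0 CPM against 85.2, 17.8 and 8.16 CPM. Fzd9, which has a role in osteoblast mineralization, was at 1.51, 0.556 and 0.924 CPM in Cd44+/+ tumors and at 13.8, 0.264 and 0.0523 CPM in No203, No279 and No364, so that only No203 stood out. Fzd2 reached 31.4 CPM in No279 against 0.672 to 10.5 CPM in the other 5 tumors. Fzd3, Fzd4 and Fzd8 lay between 0.126 and 12.8 CPM with overlapping genotypes, and Fzd10 did not exceed 0.366 CPM.

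Per kilobase of exon the Frizzled sum was 10.3, 69.9 and 71.9 CPM per kb in Cd44+/+ tumors and 34.9, 160.3 and 20.4 CPM per kb in No203, No279 and No364. Fzd5 led this sum in No244 (33.1%) and No203 (35.3%), and Fzd1 led it in the other 4 tumors (46.5% to 73.2%). The leading receptor thus differed between tumors of one genotype. Of the co-receptors, Lrp6 was at 22.9 CPM in No244 and at 49.4 to 64.1 CPM in the other 5 tumors, and Lrp5 was at 7.73 to 29.8 CPM in 5 tumors and at 59.97 CPM in No364.

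The secreted inhibitors contained the 2 members with the largest positive log2 fold changes at an unadjusted p under 0.05. Dkk3, a divergent Dickkopf family member at chr7:112116017-112159057 (minus strand, no overlapping gene), was at 8.65, 3.30 and 3.36 CPM in Cd44+/+ tumors and at 33.1, 116 and 24.5 CPM in No203, No279 and No364. No Cd44+/+ tumor reached the lowest Cd44-/- tumor. The means were 5.99 ± 3.77 CPM (SD, n = 2) and 57.7 ± 50.2 CPM (SD, n = 3), and the log2 fold change was 3.51 (SE 0.78). DESeq2 called Dkk3 with all 6 libraries (adjusted p 0.00395) and without No364 (0.000309), but not with No316 and No368 summed (0.0926). Leaving out any 1 tumor gave log2 fold changes from 2.51 to 4.11.

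Sfrp2, a Frizzled-related protein that binds Wnts, had a wider spread. It was at 13.4, 1.77 and 2.18 CPM in Cd44+/+ tumors and at 287, 108 and 8.64 CPM in Cd44-/- tumors. No364 lay below No244, so the genotypes overlapped in spite of a log2 fold change of 4.55 (SE 1.43). DESeq2 called it with all libraries (adjusted p 0.0192) and without No364 (0.000145), and not with the pair summed (0.156).

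The inhibitors best known from bone were not called in either direction by edgeR or DESeq2, and DESeq2 gave Wif1, Sfrp4, Dkk1 and Sost no adjusted p. Wif1, which binds Wnts outside the cell and was the inhibitor with the most reads, was at 129.6, 778 and 795 CPM in Cd44+/+ tumors and at 234, 39.7 and 7.75 CPM in Cd44-/- tumors (log2 fold change -2.60, SE 1.30). No203 lay above No244, and the 2 lowest tumors were those with the lowest osteoblast marker sums (22538 CPM in No279 and 3691 CPM in No364). Sfrp4 was at 19.4 to 23.1 CPM in Cd44+/+ tumors and at 20.6, 2.21 and 0.419 CPM in No203, No279 and No364. Dkk1, the soluble antagonist of Lrp5 and Lrp6, was at 3.997 to 5.63 CPM in Cd44+/+ tumors, at 10.7 CPM in No203 and at 0 and 0.0523 CPM in No279 and No364. Sost, which encodes sclerostin of osteocytes, was at 0.168, 1.32 and 1.05 CPM in Cd44+/+ tumors, at 8.17 CPM in No203 and at 0 in both other Cd44-/- tumors. Frzb was at 5.67 to 14.1 CPM in those 4 tumors, at 0.0330 CPM in No279 and at 3.77 CPM in No364. For these 5 genes No203 lay within or above the Cd44+/+ range, and No279 and No364 lay below it. Osteoblast markers moved with these levels (8 of 9 below every Cd44+/+ tumor in No279, 9 of 9 in No364, 2 of 9 in No203), and their part in the result was not tested.

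Dkk2 was high in No279 alone, at 24.3 CPM against 1.23 to 2.72 CPM in the other 5 tumors. Sfrp1 also was highest there (17.7 CPM, against 1.78 to 8.96 CPM). Sfrp5 had its highest level, 1.11 CPM, in No203 and was at or below 0.252 CPM in the others, and Sostdc1 had counts in No203 only (0.912 CPM).

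Of the 6 R-spondins and Lgr receptors, Rspo1 and Lgr5 had their reads mostly in 1 tumor. Rspo3 had its reads mostly in the near-identical No316 and No368, and Rspo2, Lgr4 and Lgr6 were spread over several tumors of both genotypes. Rspo1, which strengthens Wnt signals, had 0, 1 and 1 counts in the Cd44+/+ tumors and 4, 896 and 46 counts in No203, No279 and No364, that is 0, 0.0348 and 0.0420 CPM against 0.159, 29.6 and 2.41 CPM. The values did not overlap, but the Cd44+/+ levels were under the 3-count floor, No203 was just above it, and most reads came from No279. It was filtered out of the edgeR fit on all 6 libraries, and edgeR did not call it in the settings that kept it (adjusted p 0.818 with the pair summed, 0.170 without No203, 0.453 without No244). DESeq2 called it with all libraries (adjusted p 0.00127), with the pair summed (0.0120) and without No364 (0.000403). Rspo3 was nearly absent in the tumor where Rspo1 was highest: it was at 4.79, 52.3 and 55.9 CPM in Cd44+/+ tumors and at 10.6, 0.0660 and 2.83 CPM in Cd44-/- tumors (log2 fold change -3.07, SE 1.55, not called). Rspo2 did not exceed 1.88 CPM.

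Lgr5, an R-spondin receptor and itself a target of β-catenin, was at 29.0 CPM in No364, at 0.693 CPM in No279 and at 0.0840 to 0.139 CPM in the other 4 tumors. Lgr4 was likewise highest in No364, at 64.2 CPM against 9.61 to 28.8 CPM. No364 is the tumor with all 12 hepatocyte, all 5 epithelial and all 4 Kupffer cell markers at their highest. The part of these markers in the result was not tested. Lgr6 was at 12.2 and 12.3 CPM in No316 and No368 and at 0.262 to 7.395 CPM in the rest.

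Of the TCF/LEF factors, Lef1 was lower in all Cd44-/- tumors and the other 3 overlapped. Lef1 was at 4.201, 28.5 and 27.0 CPM in Cd44+/+ tumors and at 2.42, 4.03 and 1.31 CPM in No203, No279 and No364. The separation was narrow, since No244 was only just above No279, and with library size as the sole scaling Lef1, Nkd2 and Fzd6 overlapped. The means were 15.98 ± 16.7 CPM (SD, n = 2) and 2.58 ± 1.37 CPM (SD, n = 3), so the difference was smaller than the spread of the Cd44+/+ group once the pair counted as 1 sample, and the log2 fold change was -2.94 (SE 0.84). DESeq2 gave an adjusted p of 0.0360 with all libraries, 0.283 with the pair summed and 0.0910 without No364. Lef1 (chr3:131110471-131224356, plus strand) is overlapped by 2 other annotated genes, 1 of them on its strand.

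Tcf7, which drew the most reads of this class, was at 31.6, 122 and 119.7 CPM in Cd44+/+ tumors and at 90.5, 15.9 and 19.8 CPM in Cd44-/- tumors. Tcf7l1 was at 7.65 to 16.8 CPM against 30.5, 4.72 and 2.15 CPM, and Tcf7l2 was at 62.1, 15.7 and 16.3 CPM against 38.4, 11.7 and 10.3 CPM. In each of these 3 genes No279 and No364 were the lowest tumors and No203 was not.

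The Lef1 windows are shown because each holds a match, and they are 2 of the 4 Lef1 starts that RefSeq (GRCm38.p6) lists, both on the plus strand. The window at chr3:131110073-131110372 has a CIRE match 32 bases downstream of its start, and the one at chr3:131156044-131156343 has a TCF/LEF match on the opposite strand, TACAAAG, 147 bases upstream. Capitals mark the matches.
Lef1, first window: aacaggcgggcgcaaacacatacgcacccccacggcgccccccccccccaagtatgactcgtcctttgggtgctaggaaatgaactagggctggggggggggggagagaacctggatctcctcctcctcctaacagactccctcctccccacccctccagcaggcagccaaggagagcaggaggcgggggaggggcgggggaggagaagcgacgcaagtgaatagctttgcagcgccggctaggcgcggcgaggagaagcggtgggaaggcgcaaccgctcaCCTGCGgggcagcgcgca
Lef1, second window: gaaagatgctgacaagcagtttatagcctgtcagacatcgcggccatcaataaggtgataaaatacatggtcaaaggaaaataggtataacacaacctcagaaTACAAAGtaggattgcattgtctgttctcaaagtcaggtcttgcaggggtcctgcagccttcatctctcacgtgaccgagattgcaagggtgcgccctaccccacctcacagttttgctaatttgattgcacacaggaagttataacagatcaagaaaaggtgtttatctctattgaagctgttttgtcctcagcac

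Feedback targets report on pathway activity in many tissues, and in these tumors they did not move together. Nkd2, an inhibitor of Dishevelled at chr13:73818534-73847631 (minus strand, 1 overlapping gene on the opposite strand), was at 69.3, 291 and 293 CPM in Cd44+/+ tumors and at 27.6, 38.9 and 3.51 CPM in Cd44-/- tumors. Its genotypes did not overlap, and its log2 fold change was -3.22 (SE 0.99). The means were 180.7 ± 157.5 CPM (SD, n = 2) and 23.3 ± 18.1 CPM (SD, n = 3). The difference was thus no larger than the SD of the Cd44+/+ group once the pair counted as 1 sample. DESeq2 called it with all libraries (adjusted p 0.0441) and without No364 (0.0213), and not with the pair summed (0.277). The related Nkd1 stood in the opposite order, at 0.504, 1.43 and 1.22 CPM against 3.13, 2.11 and 15.5 CPM (log2 fold change 2.70, SE 0.95). Its difference was largest in No364, the log2 fold change was 1.31 without that tumor, and DESeq2 did not call it (adjusted p 0.115).

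Axin2, the most widely used β-catenin target, was at 2.60, 22.5 and 24.1 CPM in Cd44+/+ tumors and at 2.10, 17.9 and 19.8 CPM in No203, No279 and No364. Each genotype held 1 low tumor and others higher, and the log2 fold change was -0.31 (SE 1.02). Notum, which removes the lipid from Wnts, was at 1.68, 25.9 and 27.5 CPM against 5.95, 9.38 and 47.7 CPM. The ubiquitin ligases that take Frizzleds off the cell surface, Rnf43 and Znrf3, were both highest in No364 (15.8 and 21.9 CPM). In the other 5 tumors Rnf43 was at 1.42 to 12.7 CPM and Znrf3 at 2.52 to 7.18 CPM. Sp5, a β-catenin target outside the list, was at 9.68 CPM in No364, at 0.0330 CPM in No279 and at 0 in the other 4 tumors. Lgr5, Notum, Rnf43, Znrf3, Nkd1 and Sp5 were thus all highest in No364, the tumor with 126251 CPM of hepatocyte markers, while Axin2 there was within the range of the others and Nkd2 (3.51 CPM) and Lef1 (1.31 CPM) were lowest there. Other targets outside the list did not share the order of Sp5. Ccnd1, Ccn4 and Tnfrsf11b had No279 and No364 as their lowest tumors, and Ccn5 was highest in No279. Over all 44 fitted members No364 was the highest tumor for 6 (13.6%), against 25% of all genes. Whether the hepatocyte, epithelial or Kupffer cell markers have a part in these levels was not tested.

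The Nkd2 window is shown because Nkd2 was the feedback gene with the most reads and holds a match. It lies at chr13:73847582-73847881 on the minus strand (RefSeq, GRCm38.p6), with a CIRE match on the opposite strand, CGCAGG, in capitals, 167 bases upstream of the start.
Nkd2: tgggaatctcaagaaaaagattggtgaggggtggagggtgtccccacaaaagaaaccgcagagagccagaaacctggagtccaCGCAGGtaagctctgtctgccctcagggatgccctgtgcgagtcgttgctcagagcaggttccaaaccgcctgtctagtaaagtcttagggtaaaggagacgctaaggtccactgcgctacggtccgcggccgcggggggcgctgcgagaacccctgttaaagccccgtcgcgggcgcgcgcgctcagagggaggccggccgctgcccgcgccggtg
A promoter was available for 39 members (48 windows of 300 bases), to be set beside 32851 windows of all genes. TCF/LEF letters stood in 14.6% of the member windows and 16.9% of all windows, TRE letters in 2.08% and 5.20%, and CIRE letters in 33.3% and 17.3%. Member windows were also richer in G and C (median 66.2% against 52.7%) and in CpG dinucleotides (median 24 against 7). CIRE holds a CpG, and no match is evidence of a bound factor.

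**Figure D3:**
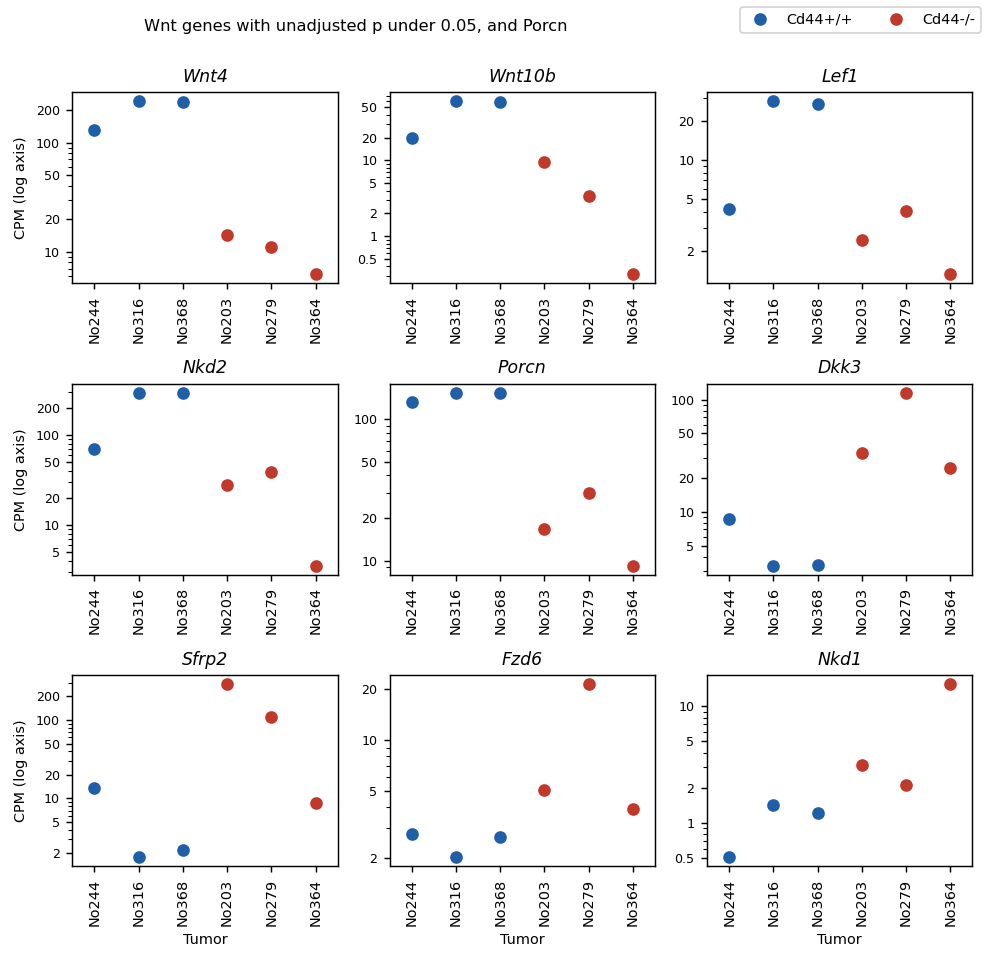
TMM-normalized CPM on log axes in each tumor for the 8 Wnt genes with an unadjusted p under 0.05 and for Porcn, with Cd44+/+ tumors in blue and Cd44-/- tumors in red. Wnt4 and Porcn show the widest gaps between colors, Lef1 a narrow one (4.201 against 4.03 CPM), and Sfrp2 overlaps (13.4 against 8.64 CPM).

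**Figure D4:**
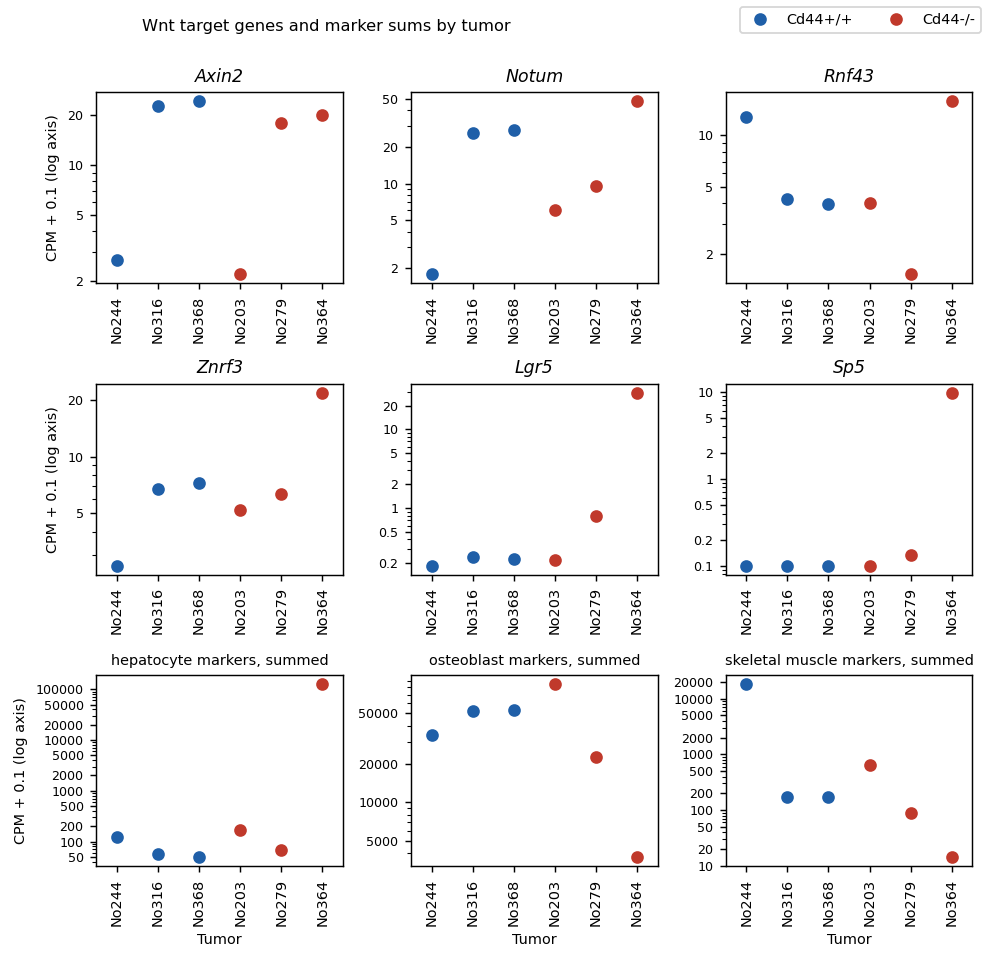
CPM + 0.1 on log axes in each tumor for 5 feedback or receptor targets of the list and Sp5 (Axin2 to Sp5) and for the summed hepatocyte, osteoblast and skeletal muscle markers. Axin2 has low and high tumors in both colors, and Lgr5 and Sp5 are high only in No364, where the hepatocyte sum is 126251 CPM.

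Of the 44 fitted members 24 had a log2 fold change above 0 and 20 below, with a median of 0.07 against 0.11 for all 16839 genes, whereas limma-voom put 18 above and 26 below (median -0.39). The classes were less even, with 10 of 11 fitted receptors above 0 and 0 of 4 TCF/LEF factors, but several of these signs rested on 1 tumor. Without No244, Fzd4, Fzd5 and Lrp6 fell below 0 (-0.07, -0.20 and -0.21) and Tcf7l2 rose to 0.33. Larger turns came without No279, where Fzd1 went from 0.62 to -1.87, and without No203, where Fzd5 and Fzd9 fell to -1.52 and -2.57. Without No364, Tcf7l1 went from -0.07 to 0.44. The median SD of log2(CPM + 0.5) within the Cd44-/- tumors was 1.61 for members and 0.66 for all genes, and within the Cd44+/+ tumors it was 1.13 and 0.54. The highest tumor was No279 for 15 of the 44 members (34.1%), against 21.5% of all genes. By class, 2 of 10 fitted ligands, 1 of 11 receptors, 2 of 9 inhibitors, 0 of 4 R-spondins and Lgr receptors, 1 of 4 TCF/LEF factors and 2 of 6 feedback genes had an unadjusted p under 0.05.

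**Figure D5:**
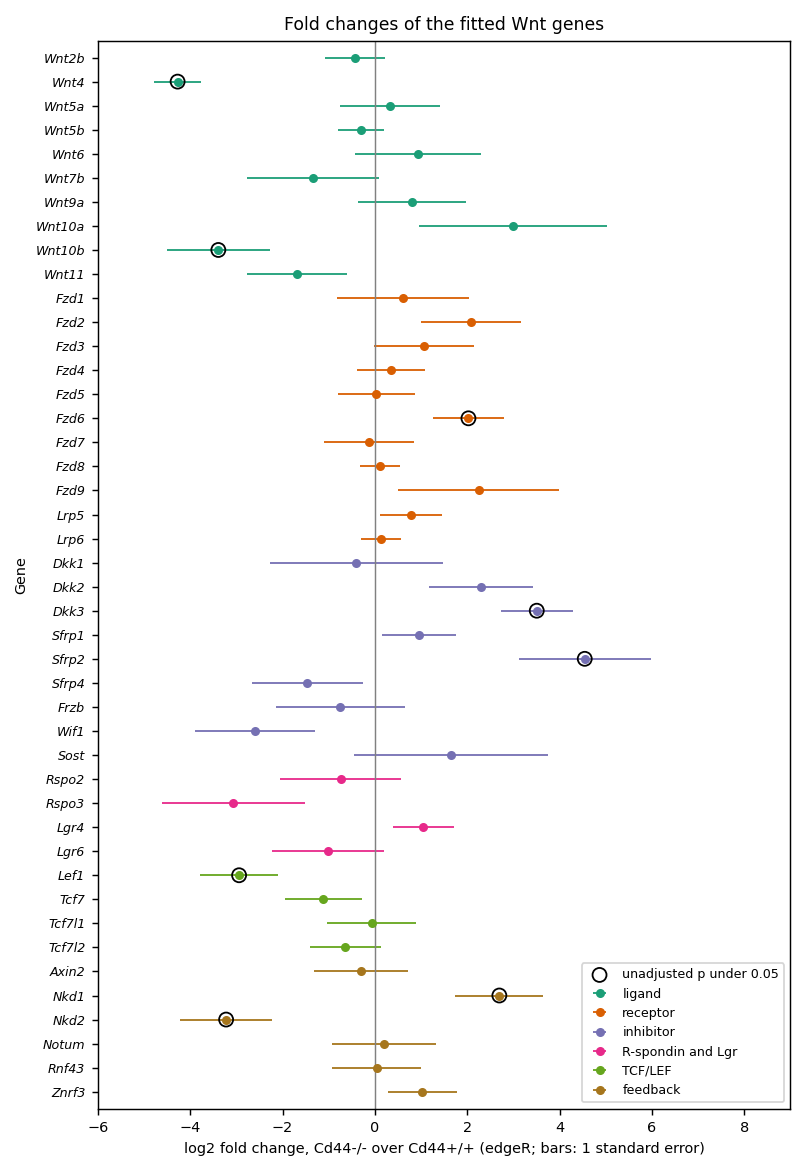
The log2 fold change (Cd44-/- over Cd44+/+) of the 44 fitted Wnt genes, colored by class. Bars are 1 standard error, derived from the edgeR F statistic, and rings mark the 8 genes at an unadjusted p under 0.05. Wnt4 lies farthest to the left at -4.27 and Sfrp2 farthest to the right at 4.55.

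The 59 other genes of the pathway (52 fitted) included 9 at an unadjusted p under 0.05 (17.3%, against 10.7% of all genes), 5 higher (6.44% of all genes) and 4 lower (4.31%) in Cd44-/- tumors. With the pair summed there were 5 (9.43%, against 4.26%). Their genotypes were apart for 12 (23.1%, against 19.1% of all genes), and 20 had a log2 fold change above 0 and 32 below. None passed the edgeR adjusted threshold, and DESeq2 called 4 (Porcn, Tle2 and Tnfrsf11b lower; Cthrc1 higher) against 2.33% of all genes. Porcn, the acyltransferase that attaches the lipid to Wnt ligands in the secretory pathway, was at 131, 152 and 154 CPM in Cd44+/+ tumors and at 16.9, 30.3 and 9.21 CPM in No203, No279 and No364. The genotypes were well apart, the log2 fold change was -2.95 (SE 0.51), and DESeq2 called Porcn with all libraries (adjusted p 0.000310) and with the pair summed (0.0379). The list was written with an earlier result for Porcn, Lef1 and Tnfrsf11b known, so this is no independent support.

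Cthrc1, a secreted collagen-region protein that binds Wnts and Frizzleds, was at 0.672, 8.58 and 8.65 CPM in Cd44+/+ tumors and at 80.9, 572 and 45.6 CPM in Cd44-/- tumors. Every Cd44-/- tumor was higher, the log2 fold change was 5.28 (SE 1.42), and DESeq2 called it with all libraries (adjusted p 0.00269) and with the pair summed (0.0189). Tle2, a Groucho co-repressor of TCF/LEF factors, was at 93.4, 97.0 and 95.97 CPM against 27.4, 9.34 and 8.22 CPM (log2 fold change -2.67, SE 0.55; DESeq2 adjusted p 0.00467, and 0.105 with the pair summed). Among those not called by either tool, Amer1, a partner of Apc in the destruction complex, had a log2 fold change of -1.42. Gpc4, Ror1 and Celsr2 had log2 fold changes of 1.20, 1.71 and 2.17, and all 4 genes had genotypes that did not overlap. Porcn, Amer1 and Gpc4 lie on chromosome X, and the part of sex in their levels was not tested. Ctnnb1, which encodes β-catenin, was at 425, 664 and 624 CPM against 787, 414 and 344 CPM. Its genotypes overlapped, with No203 above every Cd44+/+ tumor.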

How the data were processed

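Total RNA of 6 osteosarcomas was sequenced after TruSeq stranded mRNA preparation on a HiSeq2500. The authors aligned reads to GRCm38 (Ensembl release 84) and deposited raw counts per gene, whole numbers without normalization; the submitters' processing notes name bcl2fastq 1.8.4, HISAT2 2.0.2 and featureCounts of Subread 2.0.0. The extraction note in the labels speaks of cell lines, whereas the titles, tissue labels and methods name tumor tissue. The strand setting of the counting is not given in the sources used here, so overlapping genes may share reads. No count column was left unused. Totals per library limit precision through counting error only.

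Gene symbols (37693 of 39179 identifiers), coordinates and exon lengths came from GENCODE M21 (GRCm38), another release than the one used for counting. Genes were filtered with filterByExpr, scaled by TMM and tested with the edgeR quasi-likelihood test (edgeR 4.0.16, R 4.3.3). Benjamini-Hochberg adjustment was over all genes, with a threshold of 0.05. The SE of an edgeR log2 fold change was derived as its absolute value divided by the square root of the F statistic. DESeq2 1.42.0, limma-voom (limma 3.58.1), other scalings, filters, summed or left-out libraries were alternatives, of which the summed pair with No364 left out and the DESeq2 fits on changed libraries were chosen after seeing the data. An exact permutation test of 3 against 3 cannot go below p = 0.1 and was not used. The scripts were tested on simulated data. The 58 members, the other pathway genes and the marker lists were chosen with earlier results of these data known. Members were given tumor by tumor when their genotypes did not overlap, their unadjusted p was under 0.05, DESeq2 called them or their highest tumor reached 10 times the median tumor, and for the best-measured member of each class. Other pathway genes were named at an unadjusted p under 0.05 with genotypes apart. Ctnnb1, Sp5, Ccnd1, Ccn4, Ccn5, Gpc3 and Tnfrsf11b were named outside this rule.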

Additional observations from a re-analysis of the deposited data

How the results depend on the processing

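No paired analysis was possible because the groups share no replicate number in the labels. With edgeR no member was called under any scaling, filter or left-out tumor, nor by limma-voom. DESeq2 called 6 members, 2 with No316 and No368 summed and 6 without No364. Members at an unadjusted p under 0.05 numbered 8, 13 by DESeq2 without No364 (24.5% of members and 9.51% of all genes) and 7 to 19 when 1 tumor was left out. The 19 came without No203, where 41.3% of members and 17.6% of all genes were under it. By limma-voom there were also 8, of which 1 was higher and 7 lower, against 4 and 4. Members with genotypes apart numbered 7, 4 with library size as the sole scaling (Wnt4, Dkk3, Nkd1 and Wnt10b), 11 with the pair summed and No364 left out, and 8 to 26 with 1 tumor left out, where the highest counts came without No244 (19, 41.3% of members and 39.7% of all genes) and without No203 (26, 56.5% and 37.8%). Other pathway genes at an unadjusted p under 0.05 numbered 9, 5 with the pair summed, 5 with the pair summed and No364 left out, and 5 to 13 with 1 tumor left out (5 without No316 and 5 without No368). For Cd44 the log2 fold change was -2.70 by DESeq2 and -3.58 by DESeq2 without No364, both past its threshold, and -2.59 by DESeq2 with the pair summed, where the adjusted p of 0.178 was not, against -2.68 in edgeR. The median log2 fold change of the members stayed between -0.39 and 0.42, on both sides of 0. The 15 genes named for their p or their separation kept their sign in all 251 values, which their choice largely fixes, and 19 of these values passed a threshold that edgeR with all libraries had not. Of the 44 fitted members, 18 turned sign without No244, No203, No279 or No364, such as Sost (1.65, and -7.33 without No203) and Fzd9 (2.25 and -2.57). The causes of these changes were not tested.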

Other observations

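Groups of members shared the same lowest tumors, a pattern noticed after the values were seen. For 14 of the 44 fitted members (31.8%, against 14.4% of all fitted genes) No279 and No364, both Cd44-/-, were the lowest tumors: Dkk1, Frzb, Fzd5, Fzd9, Rspo3, Sfrp4, Sost, Tcf7, Tcf7l1, Tcf7l2, Wif1, Wnt10b, Wnt2b and Wnt4. These are the tumors with osteoblast marker sums of 22538 and 3691 CPM, against 33637 to 84760 CPM in the others. For 12 other members (27.3%, against 14.2%) the lowest tumors were No244 and No203, 1 of each genotype: Axin2, Fzd1, Fzd4, Fzd7, Lrp5, Notum, Rspo2, Wnt10a, Wnt5a, Wnt6, Wnt7b and Znrf3. These have the highest osteoclast marker sums (9025 and 9132 CPM, against 525 to 5573 CPM) and osteocyte marker sums (284 and 274 CPM, against 2.15 to 185 CPM). Their skeletal muscle sums were also the highest but far from each other (18169.6 and 642 CPM, against 14.1 to 174 CPM). In the other marker lists these were not the 2 highest tumors. The part of any of these markers was not tested.

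Tnfrsf11b, which encodes the decoy receptor osteoprotegerin and is a Wnt target in osteoblasts, was at 60.9 and 62.2 CPM in No316 and No368 and at 0.396 to 4.48 CPM in the other 4 tumors, No244 (1.68 CPM) among them. Its log2 fold change of -4.31 (SE 1.44) therefore rested on the 2 near-identical libraries, and the DESeq2 adjusted p was 0.0350 with all libraries and 0.236 with the pair summed. Gpc3, a glypican also made by liver tumors and encoded on chromosome X, was at 43.1 CPM in No364 and at 0.168 to 1.98 CPM elsewhere. Ccn5 was at 184 CPM in No244 and 371 CPM in No279 against 4.16 to 40.2 CPM in the other 4 tumors.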
